A study of Mus musculus with 4 samples.

Results

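Of the 23282 gene symbols listed for endothelial cells (ECs) of the mouse dura mater and brain, 46 held 1000 or more raw counts in both dura mater libraries and 7 or fewer in both brain libraries, after symbols of several named genes and gene families had been set aside. These 46 genes are described here. They were selected on the counts of all 4 libraries, so their higher level in the dura mater was fixed by the selection and is given as a description. Another 13 symbols met the same counts and were left out by name, among them Selp, Fabp4, Penk, Aebp1 and Col15a1.

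ECs were sorted from C57BL/6J mice at 8 weeks of age that received no treatment, as CD31+ CD45- TER-119- cells, from the dura mater (2 libraries) or from the brain parenchyma (2 libraries). Brain ECs were first enriched on CD31 beads, whereas dura mater ECs were not. RNA was sequenced from the 3′ ends of polyadenylated transcripts (QuantSeq), so counts are not divided by transcript length. The labels do not say whether the libraries of a tissue came from separate mice, so every p-value measures only the spread between these samples, which may be technical.

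ECs line all blood vessels and take on properties of the organ they serve. In the brain they form the blood-brain barrier, with sealed junctions, few vesicles and many transporters, and this state is kept up by Wnt signals from the surrounding tissue. The vessels of the dura mater lie outside that barrier, are open to solutes and pass immune cells through their venules.

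The 4 libraries held 13518973 to 16096203 counts. All 12 pan-endothelial markers, such as Pecam1 and Cdh5, stood at 1000 or more counts in all 4 libraries, and together took 0.923% to 1.35% of each library. The 12 markers of blood-brain barrier endothelium took 2.93% and 2.56% of the brain libraries and 0.376% and 0.403% of the dura mater libraries, so both labels matched their cells. Libraries of the same tissue differed widely, with a Pearson's r of log2 CPM (counts scaled to the library size) across 9347 genes of 0.473 for brain and 0.594 for dura mater. In the brain, 347 symbols stood at 1000 or more counts in one library and at 7 or fewer in the other, against 79 in the dura mater, so that a count near 0 in a single library was not rare for a strong gene.

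The 46 genes together held 63 and 74 counts in brain, against 113883 and 120253 in dura mater. This was 0.000435% and 0.000536% of all brain counts and 0.842% and 0.747% of all dura mater counts. Their median count was 0.5 and 1.0 in brain and 2071 and 1937 in dura mater. In the brain 10 of them were at 0 in both libraries, 19 were at 0 in 1 library, and 17 were counted in both. A count of 0 allows up to 3 counts, or 0.207 and 0.227 CPM in the brain libraries, and 36 of the 46 genes did not pass 3 counts in either of them. A level below this was not detectable at this depth, and in bulk samples fewer cells of a type and less RNA per cell cannot be told apart.

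**Figure D1:**
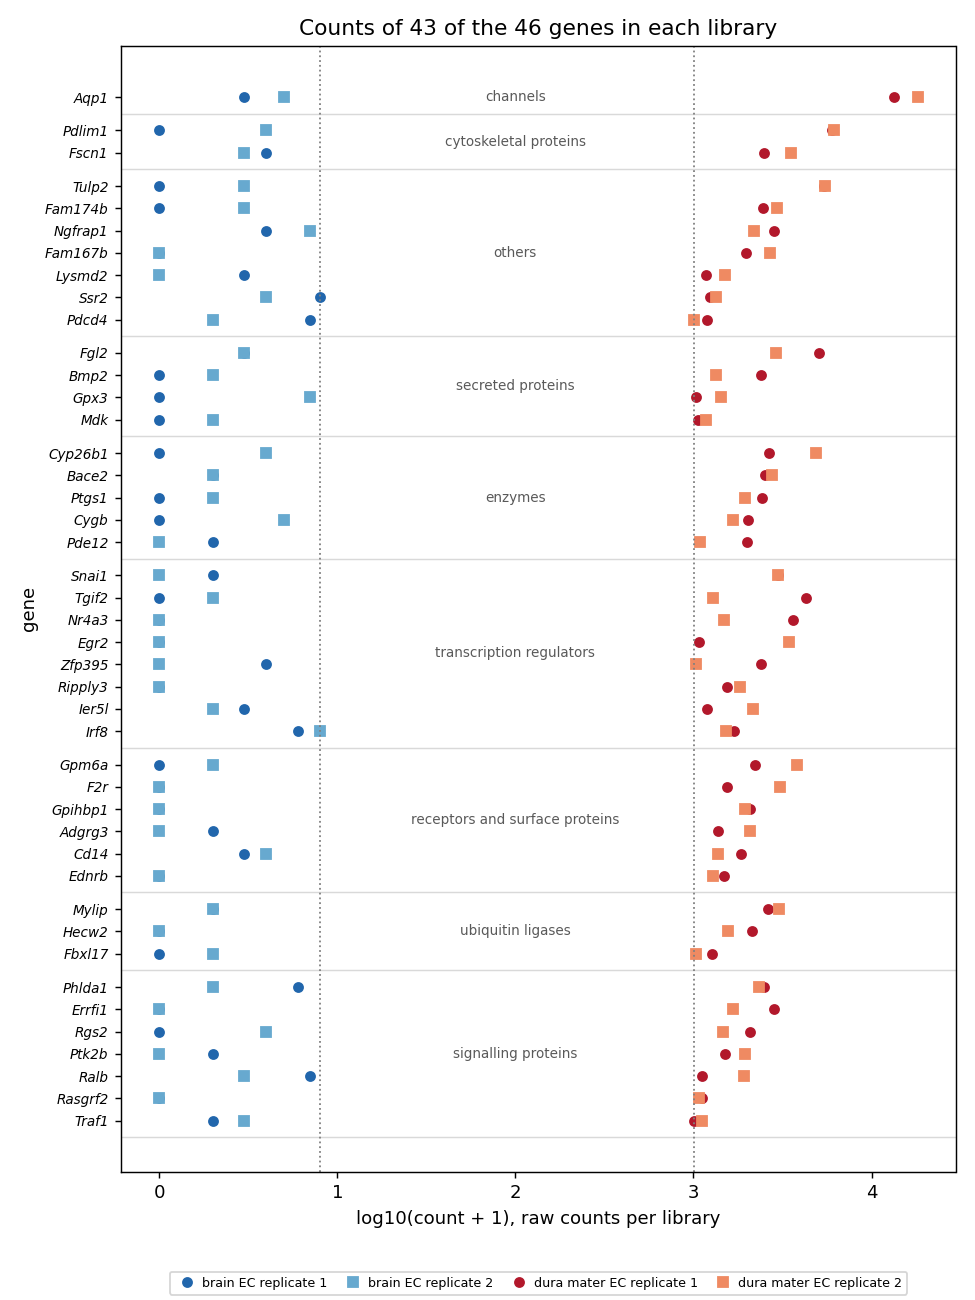
Raw counts of 43 of the 46 genes, as log10(count + 1) on the x axis, with 1 row per gene grouped by role and 1 point per library (blue for brain ECs, red and orange for dura mater ECs, points of equal value overlap). Dotted lines mark the limits of the selection at 7 and 1000 counts, and Aqp1, at 13340 and 18143 counts, stands to the right of all other genes.

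The selection was 1 corner of a wide plane. Of the 2192 symbols at 1000 or more counts in both dura mater libraries, 1400 (63.9%) also reached 1000 in both brain libraries. The larger of the brain counts was 7 or fewer for 59 symbols, 8 to 20 for 5, 21 to 63 for 7, 64 or more but under 1000 for 251, and 1000 or more for 1870. Few symbols therefore lay close to the brain limit, and raising that limit from 7 to 20 counts added 2 genes to the 46. Another 88 of the 2192 (4.01%) had 7 or fewer counts in a single brain library. The reverse pattern, 1000 or more counts in both brain libraries and 7 or fewer in both dura mater libraries, held for 2 symbols. These were Notum, a secreted Wnt inhibitor, at 3643 and 1015 brain counts, and Lrrn3, a leucine-rich repeat neuronal protein, at 1117 and 1574, each with 0 counts in the dura mater. On the dura mater side, Pdcd4 (1185 and 1000 counts), Traf1 (1002 and 1120) and Gpx3 (1028 and 1432) were just inside the limit. Aprt (1476 and 993), Nt5dc2 (990 and 1516) and Abi3 (963 and 1077) were just outside it, with at most 2 counts in brain. On the brain side, Irf8 and Ssr2 were just inside with a larger count of 7, and Tnfaip2 (9), Dcn (16) and Cd74 (22) were just outside.

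**Figure D2:**
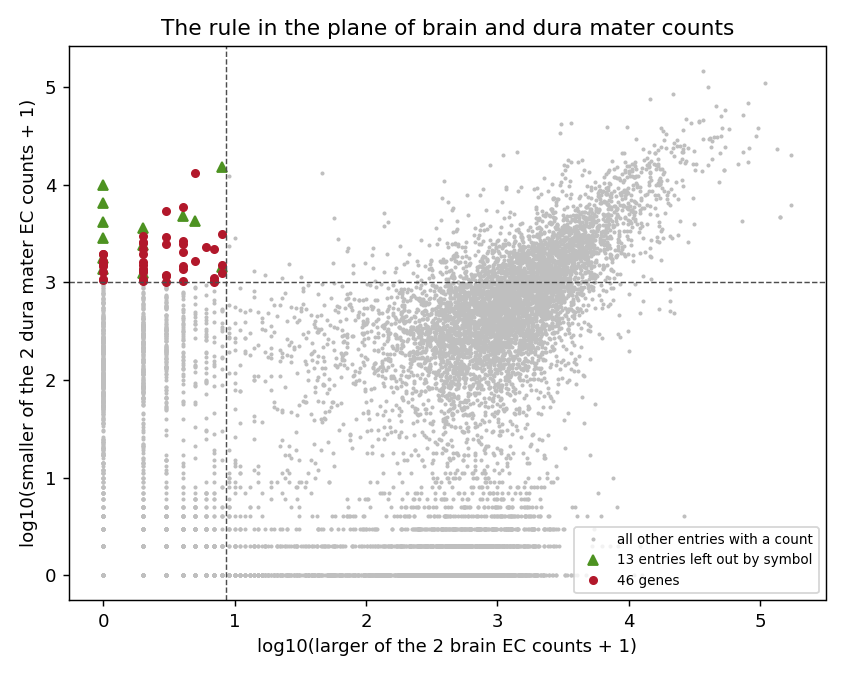
All symbols with a count, by the larger of their brain EC counts (x axis, log10 of count + 1) and the smaller of their dura mater EC counts (y axis, log10 of count + 1). Red points are the 46 genes, green triangles the 13 symbols left out by name, and dashed lines the limits of the selection, with few symbols just to the right of the brain limit among those at 1000 or more dura mater counts.

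All 46 genes passed the filter on low counts, which they could do through the dura mater libraries alone. In edgeR's quasi-likelihood test over 9347 genes, 13 of the 46 were called higher in dura mater ECs at an adjusted p under 0.05. The share of all genes tested that were called higher was 0.428%, and 0.182% were called lower, and since the genes were selected on this contrast nothing is read from the difference. At an unadjusted p under 0.05, edgeR gave 7.04% of all genes tested higher and 2.97% lower, and DESeq2 called 6.47% of its 13660 genes higher and 2.73% lower at an adjusted p under 0.05. The unadjusted and DESeq2 counts of gene lists given further on stand beside these shares, and the lists hold some of the selected genes. The 13 genes called by edgeR at the adjusted threshold included Aqp1, Pdlim1, Tulp2, Fgl2, Cyp26b1, Snai1, Fscn1, Gpm6a, Mylip, Bace2 and Ngfrap1. The common biological coefficient of variation was 1.39, meaning that replicates of a typical gene spread by more than its mean.

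By role, the 46 genes fell into 9 transcription regulators, 6 receptors and other surface proteins, 3 channels, 4 secreted proteins, 5 enzymes, 7 intracellular signalling proteins, 3 ubiquitin ligases, 2 cytoskeletal proteins and 7 others. Roles were assigned by hand once the genes were listed. Transcription regulators were the largest class by number and held 17.5% of the dura mater counts of the 46 genes, and the channels held 17.9%, most of it from Aqp1. Aqp1, a water channel, alone held 11.7% and 15.1% of the counts of the 46 genes in the dura mater libraries. Mean levels in dura mater ECs ran from 71.7 CPM (Traf1) to 1053 CPM (Aqp1), with a median of 134 CPM. After Aqp1, Pdlim1 and Tulp2 came Fgl2 at 277 ± 141 CPM (SD, n = 2), and 9 genes lay under 100 CPM. The median of the 2146 other symbols at 1000 or more counts in both dura mater libraries was 180 CPM, so the 46 genes were mostly not among the highest of the dura mater.

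The sequence before the start site is shown for 4 of the genes, Aqp1 as the most abundant, Fscn1 as a called gene with a TATA box next to its start, and F2r and Egr2 as genes with no count in the brain. These are the 250 bases before the start of transcription in RefSeq, build GRCm38.p6, on the strand of the gene. They lie at chr6:55336049-55336298 (Aqp1, plus strand), chr5:142960105-142960354 (Fscn1, plus strand), chr13:95618467-95618716 (F2r, minus strand) and chr10:67535249-67535498 (Egr2, plus strand). By the GENCODE annotation, whose start sites differ, the last 12 bases of the Fscn1 stretch, 21 of F2r and 24 of Egr2 lie inside the gene. Capitals mark the motifs found on either strand.
Aqp1: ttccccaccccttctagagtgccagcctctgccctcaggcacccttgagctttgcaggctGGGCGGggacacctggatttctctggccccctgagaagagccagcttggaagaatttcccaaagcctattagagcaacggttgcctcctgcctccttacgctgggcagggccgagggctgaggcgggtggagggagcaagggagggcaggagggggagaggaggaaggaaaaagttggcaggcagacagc
Fscn1: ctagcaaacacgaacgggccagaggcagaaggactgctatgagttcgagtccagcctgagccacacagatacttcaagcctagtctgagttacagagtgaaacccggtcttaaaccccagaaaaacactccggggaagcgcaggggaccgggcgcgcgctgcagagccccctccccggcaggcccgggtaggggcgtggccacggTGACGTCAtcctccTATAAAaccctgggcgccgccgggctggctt
F2r: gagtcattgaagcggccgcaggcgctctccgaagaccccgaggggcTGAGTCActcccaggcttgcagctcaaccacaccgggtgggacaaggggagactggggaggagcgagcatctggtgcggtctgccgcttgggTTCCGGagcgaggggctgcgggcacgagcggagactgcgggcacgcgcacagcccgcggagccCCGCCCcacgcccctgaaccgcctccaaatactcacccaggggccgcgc
Egr2: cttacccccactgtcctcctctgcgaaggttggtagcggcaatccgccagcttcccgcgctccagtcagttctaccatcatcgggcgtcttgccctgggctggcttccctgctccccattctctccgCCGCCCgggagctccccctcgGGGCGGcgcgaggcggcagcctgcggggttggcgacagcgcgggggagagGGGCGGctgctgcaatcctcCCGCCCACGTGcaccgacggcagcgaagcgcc
Aqp1 held a GC box (GGGCGG) that began 190 bases before its start. Fscn1 held a TATA box (TATAAA) at 31 bases and a cyclic AMP response element (TGACGTCA) at 45 bases. F2r held a GC box at 49 bases, an AP-1 motif (TGANTCA) at 204 bases and an ETS motif (CCGGAA) at 112 bases. Egr2 held 4 GC boxes, at 123, 102, 52 and 32 bases, the last of which shared 1 base with an E-box (CACGTG) at 27 bases. Among the same 250 bases of 27025 genes, a GC box was found in 32.9%, a TATA box in 12.97%, an ETS motif in 12.2%, an AP-1 motif in 6.87%, an E-box in 6.05% and the cyclic AMP response element in 1.62%. Of the 46 genes, 31 (67.4%) had such a sequence, under the 80% needed to compare the genes as a group, so no share is given for them. A motif match is a description of letters and does not show a bound site.

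Among the channels, Aqp1 conducts water across cell membranes and lies on chromosome 6 (GRCm38, 55336432 to 55348555, plus strand). It had 2 and 4 counts in brain and 13340 and 18143 in dura mater, or 1053 ± 82.4 CPM in dura mater (SD, n = 2). The ratio of the pooled counts, per library total, was 5011 (exact 95% interval 2302 to 13655, counting error only). A gap between the tissues was fixed by the selection, whereas the small spread of Aqp1 within the dura mater was not. Within a list of 57 channel, connexin and water channel genes, 10 reached 1000 counts in both dura mater libraries, and Aqp1 was among them. The list had 2 genes called higher, Aqp1 among them, none lower, and a median log2 fold change of 0.58 over its 28 tested genes, against -0.01 over all genes. Before adjustment, edgeR gave 8 of its genes higher and 2 lower at p under 0.05, and DESeq2 called 7 and 2, the selected genes included.

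None of the other water channels examined was strong in both dura mater libraries. Aqp7 was near 0 in brain (3 and 1 counts) and had 0 and 117 in dura mater. Aqp11, an intracellular aquaporin, had 1965 and 3267 counts in brain and 0 and 337 in dura mater. Aqp4, the aquaporin of astrocyte endfeet, was at 0 in all 4 libraries.

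Both cytoskeletal genes bind actin. Pdlim1, a PDZ and LIM domain protein of actin filaments, had 0 and 3 counts in brain and 6006 and 6167 in dura mater, the second highest mean of the 46 genes (413 ± 49.6 CPM). Fscn1, or fascin, which bundles actin in filopodia, had 3 and 2 counts in brain and 2482 and 3533 in dura mater. Of their relatives, Pdlim7 had 759 and 1883 counts in brain and 1566 and 2348 in dura mater, and Pdlim5 had 3251 and 811 in brain against 19 and 1303 in dura mater. Fscn2 and Fscn3 were at 0 in all libraries. In the list of 73 cytoskeletal, contractile and vesicle genes, 38 reached 1000 counts in both dura mater libraries and 31 in both brain libraries. In that list Pdlim1 was called higher together with Plvap and S100a6, none was called lower, and the median log2 fold change was 0.46, with 11 higher and 5 lower at an unadjusted p under 0.05 and 13 and 3 called by DESeq2.

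Among the 9 transcription regulators, Snai1, the zinc finger repressor of E-cadherin, had 1 and 0 counts in brain and 3002 and 2965 in dura mater (203 ± 29.9 CPM). Cdh1, which encodes E-cadherin, stayed at 12 counts or fewer in every library, and Snai2 alternated between replicates, at 0 and 894 in brain and 1 and 221 in dura mater. Snai1 was among the genes called in the edgeR test, and its counts were close between the dura mater replicates.

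Tgif2, a homeodomain repressor of TGF-beta signalling, had 0 and 1 counts in brain and 4307 and 1280 in dura mater. Nr4a3, an orphan nuclear receptor, had 0 counts in each brain library, against 3610 and 1483 in dura mater, at least 830-fold higher against a floor of 3 counts in each brain library. Egr2, a zinc finger factor of the early growth response family, was at 0 in each brain library and had 1068 and 3459 in dura mater. These 3 genes were among those with the widest spread within the dura mater, and the replicate that stood higher was not the same, replicate 1 for Tgif2 and Nr4a3 and replicate 2 for Egr2.

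Zfp395, a zinc finger protein, had 3 and 0 counts in brain and 2405 and 1031 in dura mater, and was another of these wide genes. Ripply3, a corepressor of T-box factors, had 0 counts in each brain library, against 1542 and 1836 in dura mater, and Tbx1, a T-box factor of the kind it binds, stood at 1912 and 1664 counts in brain against 2 and 338 in dura mater. Ier5l, a relative of the immediate early gene Ier5, had 2 and 1 counts in brain and 1188 and 2159 in dura mater. Irf8, an interferon regulatory factor best known from myeloid cells, had 5 and 7 counts in brain and 1687 and 1527 in dura mater.

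Some close relatives of these regulators were strong in brain, while others, such as Irf4, Egr4, Snai3, Ripply1 and Ripply2, were at 0 in both brain libraries. Egr1 had 1914 and 3071 counts in brain and 42616 and 58892 in dura mater, and was called higher in edgeR's test (log2 fold change 4.22, adjusted p = 0.025). Nr4a1 had 9717 and 2546 counts in brain and 39478 and 44466 in dura mater. Irf1 had 6790 and 3974 in brain and 69265 and 39760 in dura mater. These 3 relatives were thus counted in both tissues, with the higher counts in dura mater. Nr4a1 and Irf1 were not called in edgeR's test (adjusted p = 0.189 and 0.054). Ier5 (2269, 1807, 11775 and 11659 counts, in the order brain replicates 1 and 2, dura mater replicates 1 and 2) and Tgif1 (488, 282, 5391 and 1852) had the same order of tissues, whereas Nr4a2 alternated in brain (491 and 1 counts) and stood at 7839 and 3510 in dura mater.

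In the list of 146 transcription factors, which leaves out the forkhead, SOX, T-box and Irx families, 41 reached 1000 counts in both dura mater libraries and 28 in both brain libraries. It held 5 of the 46 genes, among them Snai1, Nr4a3, Egr2 and Irf8. In edgeR 7 of its 88 tested genes were called higher, among them Aebp1, Egr1, Fosb, Nfkbiz, Snai1 and Zfp36, and none lower, with a median log2 fold change of 1.34. Without adjustment 31 of them, the 5 selected genes included, were higher and 2 lower at p under 0.05 in edgeR, against 7.04% and 2.97% of all genes tested, and DESeq2 called 33 and 3, against 6.47% and 2.73%. Several of these are immediate early genes, which are known to switch on while tissue is digested. The list of 29 dissociation genes took 1.72% and 1.52% of the brain libraries and 4.53% and 4.90% of the dura mater libraries. Of that list 5 genes were called higher (Egr1, Fosb, Ier3, Junb and Zfp36), and Egr2 and Nr4a3 were its 2 members among the 46 genes. The part of dissociation in their counts was not tested.

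Among receptors and surface proteins, 3 were G-protein-coupled receptors. F2r, the thrombin receptor PAR1, had 0 counts in each brain library, against 1545 and 3048 in dura mater, at least 696-fold higher. Ednrb, the endothelin receptor type B, also had 0 in brain and 1479 and 1283 in dura mater, at least 435-fold higher. Adgrg3, an adhesion receptor, had 1 and 0 counts in brain and 1372 and 2074 in dura mater. The gap between the tissues was fixed by the selection for all 3, and none passed the adjusted threshold in edgeR.

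The endothelin genes were counted in the brain, whereas most relatives of these receptors were not. Edn1, which encodes an endothelin, had 2362 and 2871 counts in brain and 1817 and 3000 in dura mater, and the groups overlapped. Edn3, another endothelin, had 5588 and 7137 counts in brain and 1 and 627 in dura mater. Ece1, the enzyme that matures endothelins, was strong in all libraries, at 10705 to 28141 counts. Ednra, the other endothelin receptor, had 3 and 0 counts in brain and 254 and 298 in dura mater, so both receptors were near 0 in brain ECs. The thrombin receptor relatives F2rl2 and F2rl3 were at 0 in all libraries, and F2rl1 was counted in dura mater replicate 2 alone (121 counts). Adgrg1, a relative of Adgrg3, was strong in both tissues, at 7378 and 14923 counts in brain and 8580 and 9877 in dura mater. Adgrg5, another relative, was at 0 in all libraries. Of 89 receptors in the list of G-protein-coupled receptors, 59 had 7 or fewer counts in both brain libraries, as had 14444 of all 23282 symbols. In the list, 15 reached 1000 counts in both dura mater libraries and 11 in both brain libraries, against 2192 and 2024 of all symbols. None was called in either direction in edgeR, where the 36 tested had a median log2 fold change of 0.64. At an unadjusted p under 0.05 edgeR gave 9 of these receptors higher and 2 lower, and DESeq2 called 10 and 1. F2r, Ednrb and Adgrg3 passed both, as did each of the 46 genes.

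Gpihbp1 anchors lipoprotein lipase on the luminal side of capillaries. It had 0 counts in each brain library, against 2088 and 1950 in dura mater (138 ± 25.6 CPM), at least 634-fold higher. Lpl, the lipase itself, had 10 and 25 counts in brain and 1534 and 2314 in dura mater, and the fatty acid receptor Cd36 had 1 and 3 in brain and 453 and 665 in dura mater. The order of Gpihbp1 between the tissues was fixed by the selection. Lpl and Cd36, outside its limits, were also higher in both dura mater libraries, but were chosen after their values were seen. Gpm6a, a membrane glycoprotein of the proteolipid protein family known from neurons, had 0 and 1 counts in brain and 2228 and 3823 in dura mater. Its relative Gpm6b was at 1 count or fewer in every library. The 7 neuron markers took 9.68e-05% and 0.00170% of the brain libraries and 0.00648% and 0.000627% of the dura mater libraries, and their part in the counts of Gpm6a was not tested.

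Cd14, the co-receptor for bacterial lipopolysaccharide, had 2 and 3 counts in brain and 1860 and 1375 in dura mater. The receptor it serves was hardly counted, since Tlr4 had 0, 0, 0 and 50 counts and its adaptor Ly96 0, 0, 0 and 142. Lbp, the secreted lipopolysaccharide binding protein, had 0 and 493 in brain and 4937 and 4249 in dura mater, and Myd88, the adaptor inside the cell, 2 and 212 in brain and 2072 and 1969 in dura mater. Cd14 was the only one of the 46 genes in the list of 68 genes of innate sensing and interferon response, of which 55 were tested, none was called in edgeR, and the median log2 fold change was 0.13. The unadjusted count of that list was 5 higher and 4 lower in edgeR, and DESeq2 called 4 and 4.

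Cd14, Irf8 and Fgl2 are also expressed by macrophages, so markers of leukocytes were examined beside them. The 14 leukocyte markers, Cd14 included, took 0.00523% and 0.000557% of the brain libraries and 0.0233% and 0.0138% of the dura mater libraries. Ptprc, which encodes the CD45 that the sort removed, was at 1 and 3 counts in brain and 4 and 3 in dura mater, and Lyz2, Tyrobp and Cx3cr1 stayed at 9 counts or fewer in every library. Cd68 (4, 3, 550 and 441 counts) and Fcer1g (6, 17, 610 and 173) were higher in the dura mater libraries, and C1qa was high in brain replicate 1 alone (436, 1, 2 and 25). Among the other marker lists, fibroblast genes took 0.000753% and 0.00496% of the brain libraries and 0.0367% and 0.0380% of the dura mater libraries. In dura mater, Dcn had 1184 and 1664 counts, Col1a1 759 and 1237, Col1a2 1135 and 1913, and Col3a1 1443 and 962. Pdgfra stayed at 1 count or fewer throughout, and Lum and Clec3b at 4 or fewer. Dpt, Col6a3 and Mfap5 were counted mainly in a single dura mater library. Mural cell genes took 0.0695% and 0.113% of the brain libraries and 0.116% and 0.0707% of the dura mater libraries, with none called. Venous markers took 0.147% and 0.0941% in brain and 0.700% and 0.602% in dura mater, with Lrg1 and Selp called higher. Red blood cell genes took 1.76% and 2.44% of the brain libraries and 0.148% and 0.0762% of the dura mater libraries, with 3 of the 4 tested called lower in dura mater in edgeR, although TER-119+ cells had been sorted out. The 7 lymphatic markers took 0.0123% and 0.0138% of the brain libraries and 0.0429% and 0.0654% of the dura mater libraries. Of these, Prox1 (0, 0, 492 and 125), Lyve1 (0, 0, 911 and 1776) and Mmrn1 (0, 0, 1132 and 690) were counted in the dura mater alone. So was 1 entry of Ccl21a (0, 0, 883 and 3378), while its other entry was at 0 throughout. Flt4 was strong in both tissues (1777, 1905, 2384 and 4018). Pdpn (3, 7, 3 and 45) and Reln (1, 0, 0 and 502) stayed near 0 outside dura mater replicate 2. The Schwann cell list, relevant to Egr2, took 0.0294% and 0.0135% of the brain libraries and 0.0471% and 0.00917% of the dura mater libraries, with Sox10 at 1 count or fewer in each. The part of fibroblasts, mural cells, venous and lymphatic ECs, red blood cells and other cells in the counts of the 46 genes was not tested.

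Of the 4 secreted proteins, Fgl2, a fibrinogen-like protein, was highest, with 2 counts in each brain library and 5059 and 2901 in dura mater. Bmp2, a bone morphogenetic protein, had 0 and 1 counts in brain and 2386 and 1340 in dura mater. Its relative Bmp4 had 180 and 93 counts in brain and 2364 and 7793 in dura mater, while the receptor Bmpr2 was strong in all libraries, at 9719 and 9101 counts in brain and 3013 and 8049 in dura mater. The receptor Acvr1 had 1 and 32 counts in brain and 882 and 1656 in dura mater, and Bmpr1a stayed at 3 counts or fewer in every library. Bmp4 and Acvr1 thus stood higher in each dura mater library than in either brain library, and Bmpr2 stood lower, but none of them was called in edgeR. Gpx3, the secreted glutathione peroxidase, had 0 and 6 counts in brain and 1028 and 1432 in dura mater, whereas the intracellular Gpx1 was strong in both tissues, at 7337 to 16570 counts. Mdk, or midkine, a heparin-binding growth factor, had 0 and 1 counts in brain and 1063 and 1173 in dura mater. Its only close relative, Ptn, had 640 and 322 counts in brain and 1 and 211 in dura mater, the reverse order of tissues. In the list of 116 cytokines, growth factors and their receptors, which holds Bmp2 and Mdk, Lrg1 was called higher and Igf1r lower, and the median log2 fold change was 1.16, with 16 higher and 1 lower at an unadjusted p under 0.05 and 16 and 1 called by DESeq2. In the list of 111 matrix and matricellular genes, Fgl2 and Mgp were called higher and none lower, with a median of 1.23, an unadjusted count of 15 higher and 3 lower in edgeR, and 16 and 3 calls by DESeq2.

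Of the 5 enzymes, Cyp26b1 was highest, at 0 and 3 counts in brain and 2668 and 4870 in dura mater (249 ± 70.3 CPM). It is a cytochrome P450 that clears retinoic acid. The other genes of its subfamily, Cyp26a1 and Cyp26c1, were at 0 in all libraries. The retinoic acid receptor Rara had 3 and 0 counts in brain and 730 and 910 in dura mater, Rarg 974 and 464 in brain and 538 and 2254 in dura mater, and Aldh1a2, which makes retinoic acid in the meninges, was counted in dura mater replicate 2 alone (145 counts). Aldh1a1, another enzyme that makes it, had 167 and 951 counts in brain and 993 and 2 in dura mater. Rara thus stood near 0 in brain and higher in dura mater, an order that the selection had fixed for Cyp26b1, while Rarg and Aldh1a1 overlapped between the tissues.

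Bace2, an aspartyl protease, had 1 count in each brain library and 2515 and 2764 in dura mater, and its relative Bace1 stood at 94 and 0 in brain and 405 and 420 in dura mater. Ptgs1, or cyclooxygenase-1, which opens prostanoid synthesis, had 0 and 1 counts in brain and 2434 and 1943 in dura mater. The inducible Ptgs2 was at 0 in each brain library and had 411 and 156 in dura mater, so neither cyclooxygenase was counted above 1 in brain ECs. Cygb, or cytoglobin, had 0 and 4 counts in brain and 2033 and 1658 in dura mater, and the globins Mb and Ngb were at 1 count or fewer in every library. Pde12, a mitochondrial phosphodiesterase, had 1 and 0 counts in brain and 1993 and 1087 in dura mater. In the list of 85 lipid, retinoid and steroid genes, which holds Cyp26b1, Gpihbp1 and Ptgs1, Cyp26b1 and Fabp4 were called higher, none was called lower, and the median log2 fold change was 1.60. Unadjusted, edgeR gave 17 higher and 5 lower, and DESeq2 called 16 and 3.

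None of the 7 signalling proteins was called in edgeR at the adjusted threshold. All 7 passed an unadjusted p under 0.05 in edgeR and were called higher by DESeq2, as was every other selected gene. Of all genes tested, 7.04% and 6.47% were higher by these measures. The 7 genes were selected on this contrast, so nothing is read from the difference. Mean dura mater levels of the 7 ran from 71.7 to 164 CPM. Phlda1, a pleckstrin homology-like domain protein, had 5 and 1 counts in brain and 2486 and 2327 in dura mater. Errfi1, an inhibitor of the EGF receptor, had 0 counts in each brain library, against 2824 and 1675 in dura mater, although Egfr itself was counted in dura mater replicate 2 alone (79 counts). Rgs2, a regulator of G-protein signalling, had 0 and 3 counts in brain and 2065 and 1460 in dura mater. Its relative Rgs16 had the same order with a brain count, at 282 and 498 in brain and 2342 and 3156 in dura mater. Rgs4 was near 0 in brain (2 and 1 counts, against 535 and 298 in dura mater). Rgs5 overlapped between the tissues, at 11 and 342 in brain and 2 and 179 in dura mater.

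Ptk2b, the kinase PYK2, had 1 and 0 counts in brain and 1506 and 1945 in dura mater, whereas the related focal adhesion kinase Ptk2 was strong in both tissues, at 2462 to 4570 counts. Ralb, a Ras-like GTPase, had 6 and 2 counts in brain and 1118 and 1931 in dura mater, against 1288 and 197 in brain and 626 and 1253 in dura mater for its relative Rala. Rasgrf2, an exchange factor for Ras, was at 0 in each brain library and had 1119 and 1080 in dura mater, at least 345-fold higher, the smallest such bound of the 10 genes at 0. Traf1, an adaptor of TNF receptors, had 1 and 2 counts in brain and 1002 and 1120 in dura mater, the lowest mean of the 46 genes. The TNF receptor Tnfrsf1a was strong in both tissues, at 1591 and 2671 counts in brain and 7410 and 10817 in dura mater. Tnfrsf1b, another TNF receptor, had 1149 and 253 in brain and 2439 and 2538 in dura mater. Of the related adaptors, Traf5 had 1853 and 445 counts in brain and 733 and 902 in dura mater. Traf3 had 2 and 1 in brain and 761 and 636 in dura mater, and Traf2 129 and 0 against 0 and 151.

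All 3 ubiquitin ligase genes stood higher in dura mater replicate 1 in CPM. Mylip, an E3 ligase, had 1 count in each brain library and 2627 and 3035 in dura mater, and its CPM in the dura mater hardly varied (191 ± 7.06). Lrp8, a receptor that it is known to target, had 5285 and 3345 counts in brain and 1 and 164 in dura mater, the reverse order of tissues. Vldlr, another listed partner, did not have that order, at 2 and 0 counts in brain and 0 and 178 in dura mater. Hecw2, a HECT-type ligase, was at 0 in each brain library and had 2137 and 1555 in dura mater, at least 587-fold higher. Fbxl17, an F-box subunit of SCF ligases, had 0 and 1 counts in brain and 1273 and 1031 in dura mater.

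Among the 7 other genes, Tulp2, a tubby-like protein, had the third highest level of all, at 0 and 2 counts in brain and 5393 and 5464 in dura mater (368 ± 47.7 CPM). Fam174b, a membrane protein, had 0 and 2 counts in brain and 2454 and 2933 in dura mater, and its relative Fam174a was measured in both tissues (746, 1026, 443 and 504 counts). Ngfrap1, a small protein of the BEX family that the annotation names Bex3, had 3 and 6 counts in brain and 2823 and 2183 in dura mater. Fam167b, of which little is known, was at 0 in each brain library and had 1964 and 2693 in dura mater, at least 718-fold higher.

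Ssr2 and Pdcd4 stand out by their function, since both serve in most cells. Ssr2, a subunit of the translocon-associated protein complex, had 7 and 3 counts in brain and 1236 and 1333 in dura mater. The other subunits were counted in brain, Ssr1 at 1060 and 577, Ssr3 at 2602 and 1386 and Ssr4 at 324 and 1195, and in dura mater these stood at 87 and 2195, 419 and 1807, and 6 and 933. The complex was thus uneven within and between libraries, with Ssr2 near 0 in brain and Ssr4 near 0 in dura mater replicate 1. Pdcd4, an inhibitor of the translation factor eIF4A, had 6 and 1 counts in brain and 1185 and 1000 in dura mater, while its target Eif4a1 was strong in all libraries, at 1673 to 7027 counts. Lysmd2, a LysM domain protein, had 2 and 0 counts in brain and 1168 and 1498 in dura mater.

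Because the use of strand in counting is not stated, reads of an overlapping gene on the other strand cannot be told apart from those of a member. In GENCODE M21, 9 of the 46 genes had exons that overlapped an antisense gene, and for 5 of them the overlap passed 10% of the exon length, at 61.6% for Tgif2, 33.0% for Phlda1, 16.2% for Fam174b, 12.8% for Ssr2 and 12.7% for Tulp2. The share of counts that this could concern is not known. The antisense transcript 5430405H02Rik, which makes up most of the overlap of Tgif2, had 0 and 275 counts in brain and 1 and 0 in dura mater, and Dhdh, most of that of Tulp2, was at 0 in all 4 libraries. Tulp2 shares 0.381% of its exon length with Ppp1r15a, a stress-induced regulator of translation, which had 434 and 1104 counts in brain and 20390 and 21314 in dura mater. Pde12 shares 6.82% with Arf4, a small GTPase, which had 2697 and 1160 counts in brain and 3033 and 4373 in dura mater. The part of these neighbours in the counts of Tulp2 and Pde12 was not tested.

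To set the 46 genes beside their families, 112 relatives and functional partners were listed by hand after the genes were known, 75 paralogues and 37 partners. Of these, 40 had 64 or more counts in both brain libraries, 19 reached 1000 in both, 24 were at 7 or fewer in all 4 libraries, and 9 had 7 or fewer in both brain libraries with 64 or more in both dura mater libraries. Of the 65 tested, Egr1 was called higher and none lower in edgeR, with a median log2 fold change of 0.83, against -0.01 over all genes. The unadjusted count was 19 higher and 1 lower, against 7.04% and 2.97% of all genes tested, and DESeq2 called 21 and 2, against 6.47% and 2.73%. These relatives and partners were chosen after their values were seen, so nothing is read from the differences. Of the 37 genes with a listed paralogue, 19 had at least 1 paralogue at 64 or more counts in both brain libraries and 8 had 1 at 1000 or more. For the others no listed relative was measured at that level in both brain libraries.

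**Figure D3:**
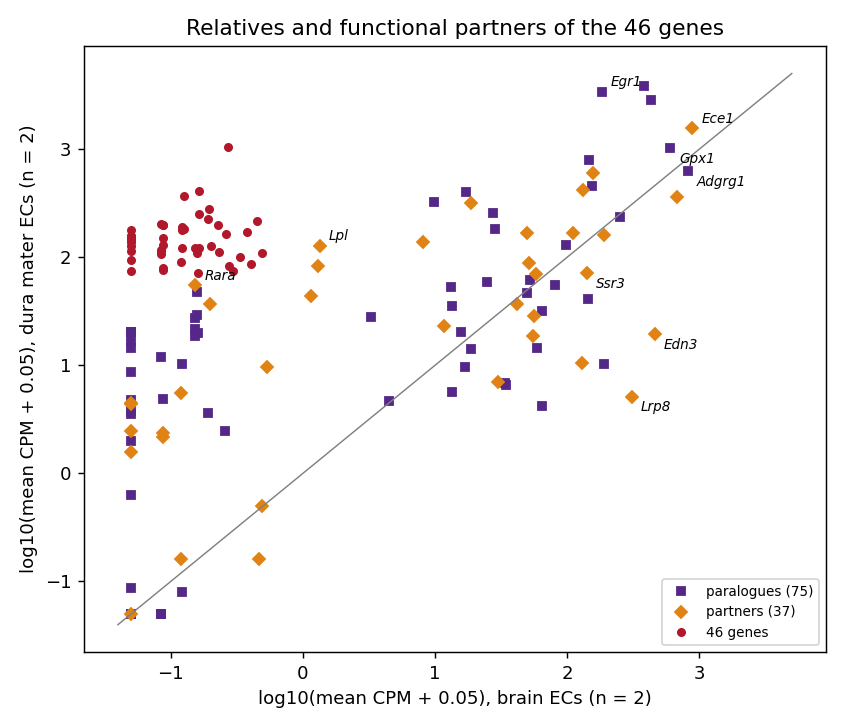
Mean CPM in brain ECs (x axis) and dura mater ECs (y axis), both as log10(CPM + 0.05) with n = 2 libraries, for the 46 genes (red), 75 listed paralogues (purple squares) and 37 partners (orange diamonds); genes at 0 in the brain lie at the left edge. The line marks equal levels, and the relatives spread along and on both sides of it, with Ece1 and Adgrg1 strong in both tissues and Edn3 and Lrp8 below the line.

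Within the dura mater, the larger CPM over the smaller had a median of 1.41 for the 46 genes and 1.33 for the 2146 other symbols at 1000 or more counts in both libraries. This ratio was under 1.5 for 30 genes and over 2 for 8. It was largest for Tgif2 (4.10), Nr4a3 (2.96) and Zfp395 (2.84), all higher in replicate 1, and smallest for Fam174b (1.02), Ripply3 (1.02) and Lysmd2 (1.05). Of the 46 genes, 32 stood higher in replicate 1 and 14 in replicate 2. The 3 genes with the largest ratios were all transcription regulators, but the median of that class was 1.49, against 1.63 for the secreted proteins, and Ripply3 is a transcription regulator too. The cytoskeletal genes Pdlim1 and Fscn1 did not pass 1.19.

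**Figure D4:**
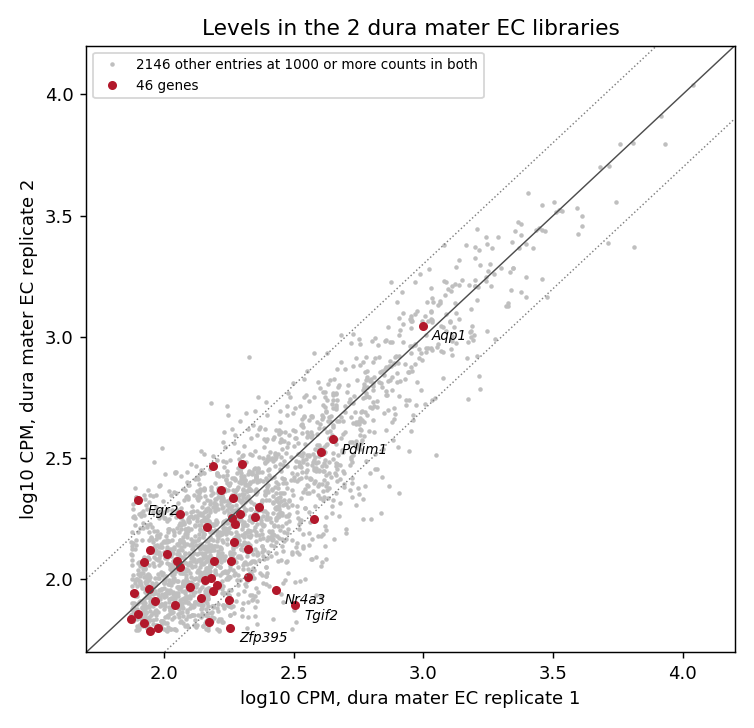
CPM in dura mater EC replicate 1 (x axis) and replicate 2 (y axis), both log10, for the 46 genes (red) and 2146 other symbols at 1000 or more counts in both libraries (grey). The solid line marks equal levels and the dotted lines a 2-fold difference, outside which lie 8 of the 46 genes, among them Tgif2, Nr4a3, Zfp395 and Egr2.

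The 46 genes shared no position and few features beyond the selection. All are protein-coding, and they lie on 19 chromosomes, with 9 on chromosome 2, among them Bmp2, Ier5l, Mdk, Ptgs1, Snai1, Tgif2 and Traf1. The median length of their longest transcript was 2932.5 bases, against 3316 bases for genes at 1000 or more counts in all 4 libraries and 3413 bases for all genes tested. The GC content of that transcript had a median of 52.5%, against 50.9% and 49.8%, and the protein a median of 407.5 residues, against 414.5 and 461. These are descriptions with no test, since genes are not replicates. Of the 46 genes, 24 were in none of the 13 functional lists, and the lists of Wnt pathway genes (52 genes) and of adhesion molecules (94 genes) held none of them. In the Wnt list none of the 17 tested genes was called in either direction in edgeR, where 2 were higher and 2 lower without adjustment, and DESeq2 called 3 and 2. In the adhesion list Icam1 and Selp were called higher and Cldn5 lower, with 23 higher and 3 lower without adjustment and 20 and 2 called by DESeq2. In the lists of coagulation genes (58), signalling genes (124) and other enzymes (101), which held F2r, Rgs2, and Bace2 with Gpx3, none was called lower in edgeR, and of the coagulation genes none higher. Without adjustment edgeR gave 7 higher and 2 lower, 20 and 5, and 10 and 1 in these 3 lists, and DESeq2 called 10 and 1, 18 and 2, and 10 and 3. At the adjusted threshold Rnd1 and Tnfaip2 were called higher among the signalling genes and Bace2 among the enzymes, and the median log2 fold changes of the 3 lists were 2.17, 0.30 and 0.07.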

How the data were processed

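ECs of the dura mater and of the brain were measured in 2 libraries each. The authors deposited raw counts, 1 whole number for each of 23282 symbols per library, unscaled and unfiltered; the submitters' processing notes name mm10, Bowtie2 and edgeR, and the counter, annotation and strand setting are not given in the sources used here. The members, gene lists, markers and tests were chosen with earlier results of these data known. Symbols were kept by the counts stated in the report, leaving out 5 symbols and 19 prefixes of gene families. CPM used trimmed-mean (TMM) library sizes. Tissues were compared over all genes with edgeR 4.0.16 (R 4.3.3), by its quasi-likelihood test of the deposited counts (filterByExpr, prior count 2, Benjamini-Hochberg adjustment, threshold 0.05), in place of the cufflinks test of the study, which needs alignments. The scripts were tested on simulated data. A fold against 0 counts used a floor of 3 counts in each brain library. Intervals and floors cover counting error only. Lists were described by counts and medians.

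Named genes were the 10 members with the highest mean dura mater CPM, up to 6 per role by that mean, those just inside and outside the limits, and those with the largest and smallest ratio between dura mater libraries. Members beyond these, relatives, partners and neighbours were chosen after their values were seen. Positions and exons are from GENCODE M21 (GRCm38), and promoters from RefSeq. Alternatives were DESeq2 1.42.0, other scalings, filters and thresholds, a replicate block, other count limits, a prior count of 0.5 and leaving out each library. Totals per library limit the precision of counts near 0, and 0 columns of other samples were set aside. The values of 3 of the 46 genes and of 1 partner are not reported here.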

Additional observations from a re-analysis of the deposited data

How the results depend on the processing

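The number of genes in the selection was 137 with a dura mater minimum of 500 counts, 15 with 2000 counts and 10 with 0 counts allowed in brain, and 81 to 120 when a library was left out (86 without either brain replicate). It was 48 with up to 20 brain counts, 39 on scaled counts, 40 on thinned counts and 59 with no symbol left out. In the edgeR test, where 57 genes and 13 of the 46 were called, no filter gave 326 genes and 42 of the 46, at least 10 counts in every library gave 141 genes and 0 of the 46 (which it removes), and an adjusted p under 0.01 gave 1 gene, Aqp1. DESeq2 called 1257 genes and all 46. Leaving out a library gave 80 to 740 genes and 9 to 46 of the 46, with 740 and 701 genes without brain replicates 1 and 2. The replicate numbers did not pair the libraries (correlation of deviations -0.0208), and with the replicate block 224 genes and 33 of the 46 were called; the cause was not tested for these changes. The share of calls that were higher, 70.2%, was 59.8% with no filter, 53.2% with 10 counts in every library, 59.4% with the replicate block, and 53.8% and 44.3% without dura mater replicates 1 and 2. For single members, 506 fold changes under the alternatives ran from 7.05 to 13.67 on the log2 scale. None changed sign, which the selection had fixed in advance. With 2 libraries per group, a level in brain below 3 counts cannot be told from 0.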
